A study of Sus scrofa with 6 samples.

Results

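The genes studied were 8 components of the NADPH oxidases, CYBB, CYBA, NCF1, NCF4, RAC1, RAC2, NOX4 and NOX1, among 30477 genes measured in pig abdominal aorta. They were chosen by name. Of these, 7 stood under their own symbols in the deposited values, and CYBB was listed as GP91-PHOX, a name that RefSeq pairs with CYBB through the same gene identifier. NADPH oxidases are membrane enzymes that pass electrons from NADPH to oxygen and so make superoxide or hydrogen peroxide. The phagocyte enzyme consists of the catalytic chain CYBB (also called NOX2) and its partner CYBA, and it is silent until cytosolic proteins such as NCF1 and NCF4 and a Rac GTPase join it. NOX4 is the form usually described in smooth muscle and endothelium, needs CYBA but no cytosolic activator, and releases mainly hydrogen peroxide.

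Total RNA was taken from the abdominal aorta of 6 male Wuzhishan miniature pigs, 3 fed normal chow (NC) and 3 fed chow rich in fat, cholesterol and fructose (HFCF), over 6 months. The labels give an age of 3 to 4 months, the article's methods an older one at purchase. The labels name no genetic change, and each library came from 1 pig. The diet comparison asks which oxidase genes differ between an atherosclerotic and a normal aorta. Levels are FPKM (fragments per kilobase of exon, scaled to the mapped reads of the library), so levels of different genes are compared per length. Differences are log2 fold changes of FPKM + 0.1, HFCF minus NC, which understate the change of low genes, and carry a standard error (SE). They were tested with limma and adjusted by Benjamini-Hochberg over the 15384 genes that averaged 0.1 FPKM or more, and a gene was called at an adjusted p under 0.05.

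The libraries were up to 1.37 times as deep as that of the first NC pig, and the absolute depth is unknown. Over all tested genes the log2 fold change had a median of 0.32. This moved to -0.0027 with median-ratio scaling, -0.07 with quantile normalization and 0.09 with rescaling to TPM. Differences of the tested members are therefore also given relative to the median of 0.32, and those of other genes are not. One of the 2 mitochondrial rRNA genes had 0.29 to 0.69 FPKM in the NC libraries and 140.7 to 205.7 FPKM in the HFCF libraries, and its part in the results below was not tested. A difference between the groups in how the libraries were made and the diet cannot be told apart in any fold change given here. The labelled tissue showed in high smooth muscle markers in all 6 libraries (6 genes summing to 15145 to 21336 FPKM in NC and 7660 to 12401 FPKM in HFCF). In a bulk sample, more cells of a type and more RNA per cell cannot be told apart.

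The 5 phagocyte genes, CYBB, CYBA, NCF1, NCF4 and RAC2, rose in the HFCF group, while RAC1 and NOX4 were not called and NOX1 was too low to test. Of all tested genes, 22.8% were called higher and 6.16% lower in the HFCF group. In the same 5 members every HFCF pig lay above every NC pig, a pattern seen in 36.1% of tested genes. None of the 7 tested members passed the filter on low values through the HFCF group alone, as the lowest NC mean among them was 0.29 FPKM. The median log2 fold change of the 7 members was 2.74. Relative to the all-gene median, CYBA lay at 2.10, NCF1 at 3.21, NCF4 at 2.42 and RAC2 at 2.43, and the other tested members are given below. The calls of the 5 genes held in each of 15 alternative analyses.

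**Figure D1:**
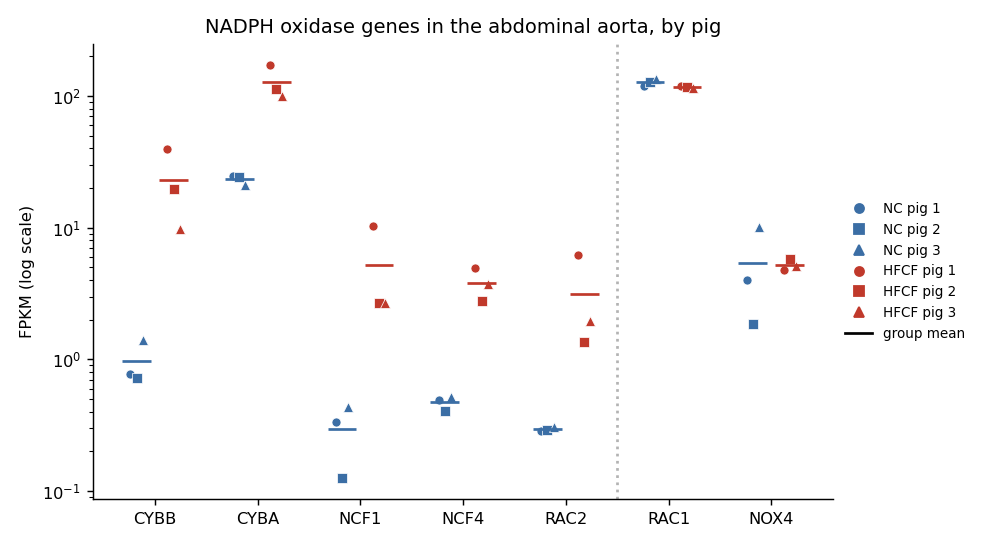
FPKM of 7 member genes in each pig on a log scale, with horizontal lines for group means of 3 pigs. The HFCF pigs lie above the NC pigs for the 5 genes left of the dotted line, while the groups overlap for RAC1 and NOX4; NOX1 is not drawn.

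CYBB (ENSSSCG00000036246), the chain that carries the electrons across the membrane, had 0.78, 0.73 and 1.40 FPKM in the NC pigs and 39.7, 19.5 and 9.81 FPKM in the HFCF pigs. The groups did not overlap, and the first HFCF pig was the highest of the 6. Group means were 0.97 ± 0.38 and 23.0 ± 15.2 FPKM (SD, n = 3 per group), a ratio of 23.8. This was a log2 fold change of 4.27 (SE 0.50, adjusted p = 0.00226, limma), or 3.94 above the all-gene median, and 3.42 with a pseudocount of 1. Only 85 of the 15384 tested genes had a larger one. The 3 HFCF pigs differed among themselves by 4.04 times from the lowest to the highest.

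CYBA (ENSSSCG00000031493) encodes the small chain that stabilizes CYBB and also partners NOX4 and NOX1. It had 24.7, 24.4 and 21.0 FPKM in the NC pigs and 172.8, 113.3 and 99.98 FPKM in the HFCF pigs. All NC values lay close together and well under the HFCF values. Group means were 23.4 ± 2.06 and 128.7 ± 38.8 FPKM (SD, n = 3 per group), a ratio of 5.50 and a log2 fold change of 2.42 (SE 0.22, adjusted p = 0.00109, limma). CYBA was thus already abundant in the chow-fed aorta, at a level per length far above that of CYBB.

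Among the cytosolic proteins, NCF1 (ENSSSCG00000007722), the organizer subunit that is phosphorylated when the enzyme is switched on, had 0.33, 0.13 and 0.43 FPKM in the NC pigs. It had 10.3, 2.67 and 2.70 FPKM in the HFCF pigs, so the first HFCF pig stood at 3.84 times the mean of the other two. Its log2 fold change was 3.53 (SE 0.59, adjusted p = 0.0068, limma). Without the first HFCF pig it was 2.90, and with a pseudocount of 1 it was 2.05.

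NCF4 (ENSSSCG00000000137), which binds a phosphoinositide on phagosome membranes, was the most even of the rising genes among the HFCF pigs beside CYBA. It had 0.50, 0.41 and 0.52 FPKM in the NC pigs and 4.97, 2.76 and 3.72 FPKM in the HFCF pigs. Group means were 0.47 ± 0.06 and 3.82 ± 1.11 FPKM (SD, n = 3 per group), a ratio of 8.08. In limma the log2 fold change was 2.74 (SE 0.28, adjusted p = 0.00159) and 1.69 with a pseudocount of 1.

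RAC2 (ENSSSCG00000021944), the Rac GTPase of blood cells, had 0.29, 0.29 and 0.31 FPKM in the NC pigs and 6.18, 1.36 and 1.95 FPKM in the HFCF pigs. The NC values were nearly equal, whereas the HFCF values spread over 4.54 times. RAC2 had a log2 fold change of 2.75 (SE 0.53, adjusted p = 0.0107, limma). It was 2.13 without the first HFCF pig and 1.51 with a pseudocount of 1. The FPKM values do not show how reads shared by the similar RAC1, RAC2 and RAC3 transcripts were divided.

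RAC1 (ENSSSCG00000035090) is the Rac GTPase of nearly all cells. It had 118.3, 128.5 and 133.6 FPKM in the NC pigs and 119.5, 116.4 and 114.5 FPKM in the HFCF pigs. The groups overlapped through the first pig of each, and the whole range of the 6 libraries was narrow. The log2 fold change was -0.12 with a 95% interval from -0.41 to 0.18 (adjusted p = 0.518, limma), or -0.44 relative to the all-gene median. After median-ratio scaling, which removes the upward shift of the median gene, RAC1 was called lower by limma at -0.47 on the log2 scale (adjusted p = 0.0302). Rescaling to TPM gave -0.38 (adjusted p = 0.0758, limma). The direction was negative under each of the 3 scalings.

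NOX4 (ENSSSCG00000014927) had 4.01, 1.85 and 10.2 FPKM in the NC pigs and 4.81, 5.77 and 5.10 FPKM in the HFCF pigs. The HFCF pigs lay inside the range of the NC pigs, which differed by 5.50 times among themselves against 1.20 times in the HFCF group. The means were 5.35 ± 4.33 and 5.23 ± 0.49 FPKM (SD, n = 3 each). The log2 fold change was 0.29, or -0.035 relative to the all-gene median. The 95% interval of the former ran from -0.999 to 1.57 (adjusted p = 0.723, limma), wide enough to hold a large rise or a large fall. The fold change of 0.29 turned its sign with median-ratio scaling (-0.063), with quantile normalization (-0.12) and without the second NC pig (-0.29). Without the third NC pig the value was 0.91 (adjusted p = 0.112, limma).

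Markers of other cell types also differed among the NC pigs. Across the NC pigs, in the order used above, 5 adipocyte markers summed to 181.3, 284.0 and 36.9 FPKM, 6 endothelial markers to 188.4, 209.0 and 99.1 FPKM and 5 fibroblast markers to 2217, 2542 and 1168 FPKM. NOX4 was lowest in the second pig, where these sums were highest, and highest in the third, where they were lowest. In the same order, 6 smooth muscle markers summed to 21336, 17254 and 15145 FPKM, highest in the first pig and lowest in the third. The library of the third NC pig was also the deepest. The part of adipose tissue, endothelium, fibroblasts, smooth muscle or depth in the NOX4 values was not tested.

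NOX1 (ENSSSCG00000012485), a form found chiefly in colon epithelium and at low levels in smooth muscle, was listed at 0 in 5 of the 6 libraries. It had 0.040 FPKM in the second NC pig. No fold change is given.

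The order of levels per length differed between the diets. In the NC group the means ran from RAC1 (126.8 FPKM) and CYBA (23.4 FPKM) through NOX4 (5.35 FPKM) and CYBB (0.97 FPKM) to NCF4 (0.47 FPKM), NCF1 (0.30 FPKM) and RAC2 (0.29 FPKM). NCF1 overlapped both of its neighbours, while NOX4 lay above CYBB in each NC pig. In the HFCF group the means of CYBA (128.7 FPKM) and RAC1 (116.8 FPKM) came first with overlapping ranges, followed by CYBB (23.0 FPKM). NCF1 and NOX4 had means of 5.23 FPKM each, NCF4 3.82 FPKM and RAC2 3.16 FPKM, and the ranges of these 4 genes overlapped. The lowest CYBB value (9.81 FPKM) lay just under the highest NCF1 value (10.3 FPKM), but these came from different pigs.

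Ratios of 2 FPKM values within a library do not depend on a factor applied to the whole library. The tested log2 values carry the pseudocount of 0.1, so such a factor can move them, and they differ from the log2 of the printed ratios. There were 8 relations within a library, adjusted together, with the macrophage marker comparisons below among them. An exact two-sided permutation test of 3 pigs against 3 cannot give a p below 0.1. CYBB stood at 0.19, 0.39 and 0.14 times the FPKM of NOX4 under NC and at 8.25, 3.39 and 1.92 times under HFCF feeding. CYBB was therefore the lower of the pair in every NC pig and the higher in every HFCF pig. On the log2 scale the ratio differed by 3.98 between the groups (exact permutation p = 0.1, adjusted p = 0.133).

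The ratio of RAC2 to RAC1 was 0.0024, 0.0023 and 0.0023 under NC and 0.052, 0.012 and 0.017 under HFCF feeding. RAC1 remained the more abundant Rac in all 6 pigs. The log2 ratio differed by 2.87 (exact permutation p = 0.1, adjusted p = 0.133) and by 2.26 without the first HFCF pig. It differed by 1.62 with a pseudocount of 1 and by 3.18 with a pseudocount of 0.01. The ratio of CYBB to CYBA was 0.031, 0.030 and 0.067 under NC and 0.23, 0.17 and 0.098 under HFCF feeding, without overlap. It differed by 1.85 on the log2 scale (exact permutation p = 0.1, adjusted p = 0.133) and by 1.05 with a pseudocount of 1 (exact permutation p = 0.2).

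**Figure D2:**
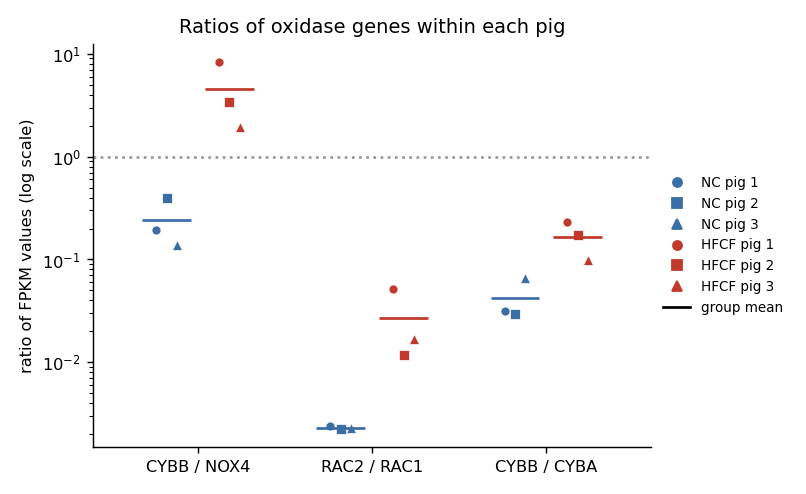
Ratios of FPKM values within each pig on a log scale, with the dotted line at equal levels and horizontal lines for group means. The ratio of CYBB to NOX4 lies below 1 in the 3 NC pigs and above 1 in the 3 HFCF pigs, and the groups do not overlap in any of the 3 ratios.

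Macrophage markers moved with the phagocyte oxidase. Of 10 listed markers, 9 were in the table and 8 were tested (CD68, CD14, CSF1R, MSR1, CD163, MRC1, AIF1 and ITGAM). All 8 were called higher in the HFCF group, beside 22.8% of all tested genes, and their median log2 fold change was 3.15. MRC1 kept its call in only 3 and CD14 in 13 of 15 alternatives, and the others kept theirs in all 15. The 9 genes summed to 20.7 to 21.5 FPKM in the NC pigs and to 509.0, 210.2 and 203.0 FPKM in the HFCF pigs, and LYZ was listed at 0 throughout. The first HFCF pig was highest for 7 of the 8 tested markers, as it was for the 5 phagocyte oxidase genes. The part of macrophage number in the rise of these genes was not tested.

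Each phagocyte gene was then set against the mean log2 level of the 8 macrophage markers in the same pig. CYBB lay at -0.60 ± 0.35 in the NC group and at 0.27 ± 0.55 in the HFCF group (log2, SD, n = 3 each). The groups overlapped and the difference was 0.86 (exact permutation p = 0.2, adjusted p = 0.229). NCF1 differed by 0.13 (exact permutation p = 0.8, adjusted p = 0.8), with overlapping groups, and by -0.66 with a pseudocount of 1.

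CYBA, NCF4 and RAC2 stood lower relative to the markers in the HFCF group, although the test could not reach the threshold. CYBA lay 3.91 ± 0.27 above the marker mean in the NC group and 2.93 ± 0.34 above it in the HFCF group (log2, SD, n = 3 each), a difference of -0.98. The differences were -0.66 for NCF4 and -0.65 for RAC2. In these 3 genes all HFCF pigs lay below all NC pigs (exact permutation p = 0.1, adjusted p = 0.133 for each). These values depend on the pseudocount, which compresses the low genes: with a pseudocount of 1 they were -0.34 for CYBA, -1.03 for NCF4 and -1.20 for RAC2. CYBA then had an exact permutation p of 0.2, as had RAC2 with a pseudocount of 0.01. Of 15384 tested genes, only 254 had a larger log2 fold change than the marker ITGAM (3.33), and the median of the markers was 3.15. A lower standing is therefore not particular to these 3 genes, and its share over all tested genes was not counted. The standing also depends on the marker. All 3 rose more than CD14 (1.71) and MRC1 (1.31) and less than CD68, MSR1, AIF1, ITGAM and CD163. CSF1R (2.56) rose more than CYBA and less than NCF4 and RAC2.

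**Figure D3:**
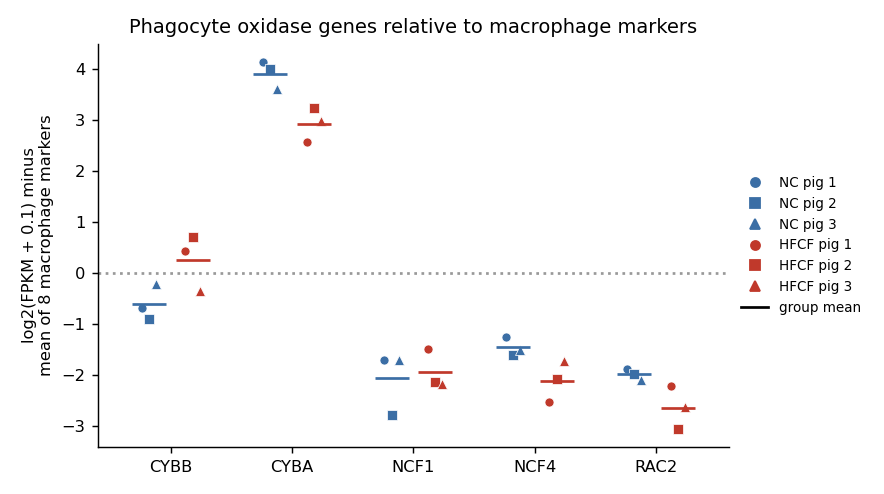
Level of each phagocyte oxidase gene in each pig minus the mean of 8 macrophage markers in the same pig, on the log2(FPKM + 0.1) scale, with horizontal lines for group means. The HFCF pigs lie below the NC pigs for CYBA, NCF4 and RAC2 and overlap them for CYBB and NCF1.

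Markers of other blood cells, some of which also use this oxidase, were read in the same way. Of 8 neutrophil markers, 6 were in the table and 4 were tested, and CSF3R, the receptor for the granulocyte growth factor G-CSF, was called higher. Its log2 fold change was 5.29 (SE 0.86, adjusted p = 0.0061, limma), above that of CYBB, and its call held in all 15 alternatives. The 6 summed to 1.58 to 3.00 FPKM in the NC pigs and to 95.2, 13.7 and 6.37 FPKM in the HFCF pigs. Of the latter sums, CSF3R alone gave 55.9, 8.38 and 4.55 FPKM. The other tested markers, S100A12, S100A8 and ELANE, were not called, and the groups overlapped for each of them. S100A12 stood at 27.3, 3.35 and 0.85 FPKM under HFCF feeding, against 1.29, 2.02 and 0.094 FPKM under NC. ELANE had a log2 fold change of 0.026. The granule enzyme MPO was listed at 0 in 5 libraries and at 0.059 FPKM in the first HFCF pig, and S100A8 had 11.2 FPKM in that pig and at most 0.22 FPKM elsewhere. Neutrophils also carry ITGAM and CD14 of the macrophage list, and the part of neutrophils in the rise of the oxidase genes was not tested. All 3 general leukocyte markers (PTPRC, CD53 and CORO1A) were called higher. Of 6 T cell markers, 2 were called higher, CD2 and CD8A, and of 5 B cell markers, of which 4 were tested, only CD79A was. CD2 kept its call in 13 and CD8A in 3 of the 14 alternatives in which they were tested. These counts stand beside 22.8% of all tested genes called higher. The B cell marker MS4A1 was at 0 in 5 libraries. Beside 6.16% of all tested genes called lower, smooth muscle markers were called lower in 4 of 6 genes. Of these, ACTA2 kept its call in 8, CNN1 in 9, MYH11 in 12 and SMTN in 14 of 15 alternatives.

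The wider oxidase pathway was described with 4 lists of 48 genes, of which 46 were in the table and 41 were tested. Among the 41, 18 were called higher and 2 lower in the HFCF group, and their median log2 fold change was 0.66, beside 0.32 for the tested genes as a whole. The number called higher fell to 11 under each of the 3 scalings, to 10 without the first NC pig and to 11 without the second NC pig. The share of all tested genes called higher fell as well, from 22.8% to between 11.4% and 14.5% under the scalings, to 12.7% without the first NC pig and to 15.2% without the second.

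Of the other NOX family and partner genes, 11 were tested, and 3 were called higher and 2 lower, with a median log2 fold change of -0.29. The counts of this list and of those that follow stand beside 22.8% of all tested genes called higher and 6.16% called lower. HVCN1, the voltage-gated proton channel that balances the charge moved by the oxidase, had group means of 0.84 ± 0.14 and 11.1 ± 6.39 FPKM (SD, n = 3 per group). Its log2 fold change of 3.39 lay between those of NCF1 and NCF4. RAC3 (1.16) and RAP1A (0.67), a small GTPase that copurifies with the flavocytochrome, were also called higher, RAP1A in 8 of 15 alternatives.

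The genes that fell included a partner of NOX4. POLDIP2, which binds CYBA and raises NOX4 activity, had 33.8, 31.5 and 34.7 FPKM in the NC pigs and 17.9, 21.5 and 21.6 FPKM in the HFCF pigs. Its log2 fold change was -0.71 (SE 0.14, adjusted p = 0.0108, limma) and its call held in all 15 alternatives. SH3PXD2A (also TKS5), a scaffold related to NCF1, had a log2 fold change of -0.76 and likewise held in all 15. CYBC1, the chaperone needed to assemble CYBB with CYBA, changed by 0.66 on the log2 scale and was not called (adjusted p = 0.0599, limma). Its HFCF pigs lay above its NC pigs, a pattern seen in 36.1% of tested genes, and none of the 15 alternatives called it.

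Of the other catalytic chains, NOX3 was listed at 0 in all 6 libraries, DUOX1 was above 0 only in the first NC pig, and NOX5 stayed at or below 0.50 FPKM. DUOX2 had a higher mean than CYBB in the NC group. It ranged from 0.13 to 2.64 FPKM in the NC pigs and from 0.23 to 1.39 FPKM in the HFCF pigs, with no call.

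Of the 10 Rac exchange factors and brakes, all tested, 7 were called higher by limma. The 4 largest were VAV1 (3.90), the exchange factor of blood cells, VAV3 (3.03), DOCK2 (2.81), a leukocyte exchange factor for Rac, and ARHGAP25 (1.78), a leukocyte protein that switches Rac off. VAV1 had 0.69, 0.55 and 0.68 FPKM in the NC pigs and 18.3, 10.2 and 6.91 FPKM in the HFCF pigs. ARHGAP25 kept its call in only 3 of 15 alternatives. The other called genes of the list were ARHGDIB (1.65), RACGAP1 (1.36) and PREX1 (1.13), of which RACGAP1 kept its call in 5 and PREX1 in 7 of 15 alternatives. VAV2 (-0.14), ARHGDIA (-0.15) and TIAM1 (0.64) were not called.

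Of 12 tested kinases and lipid enzymes that phosphorylate or trigger the oxidase, 5 were called higher. These were BTK (4.05), SYK (3.23), PIK3CG (2.05), PIK3CD (1.52) and PRKCB (1.52), all prominent in blood cells. BTK had 0.43, 0.47 and 0.56 FPKM in the NC pigs and 16.0, 8.16 and 6.75 FPKM in the HFCF pigs. PRKCB and PIK3CD kept their calls in 4 and 6 of 15 alternatives. PRKCA, PRKCD, PRKCZ, PAK1, PAK2, MAPK14 and PLCG2 were not called.

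Of 8 tested genes that remove superoxide and peroxide, 3 were called higher, and their changes were small beside those of the phagocyte oxidase. PRDX1, a peroxide-reducing peroxiredoxin, had a log2 fold change of 1.20, TXN, its electron donor thioredoxin, 0.86, and SOD2, the mitochondrial superoxide dismutase, 0.87. SOD2 kept its call in 4 of 15 alternatives. SOD1 (0.58), SOD3 (0.78), CAT (0.28), PRDX2 (0.27) and GPX1 (0.64) were not called.

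**Figure D4:**
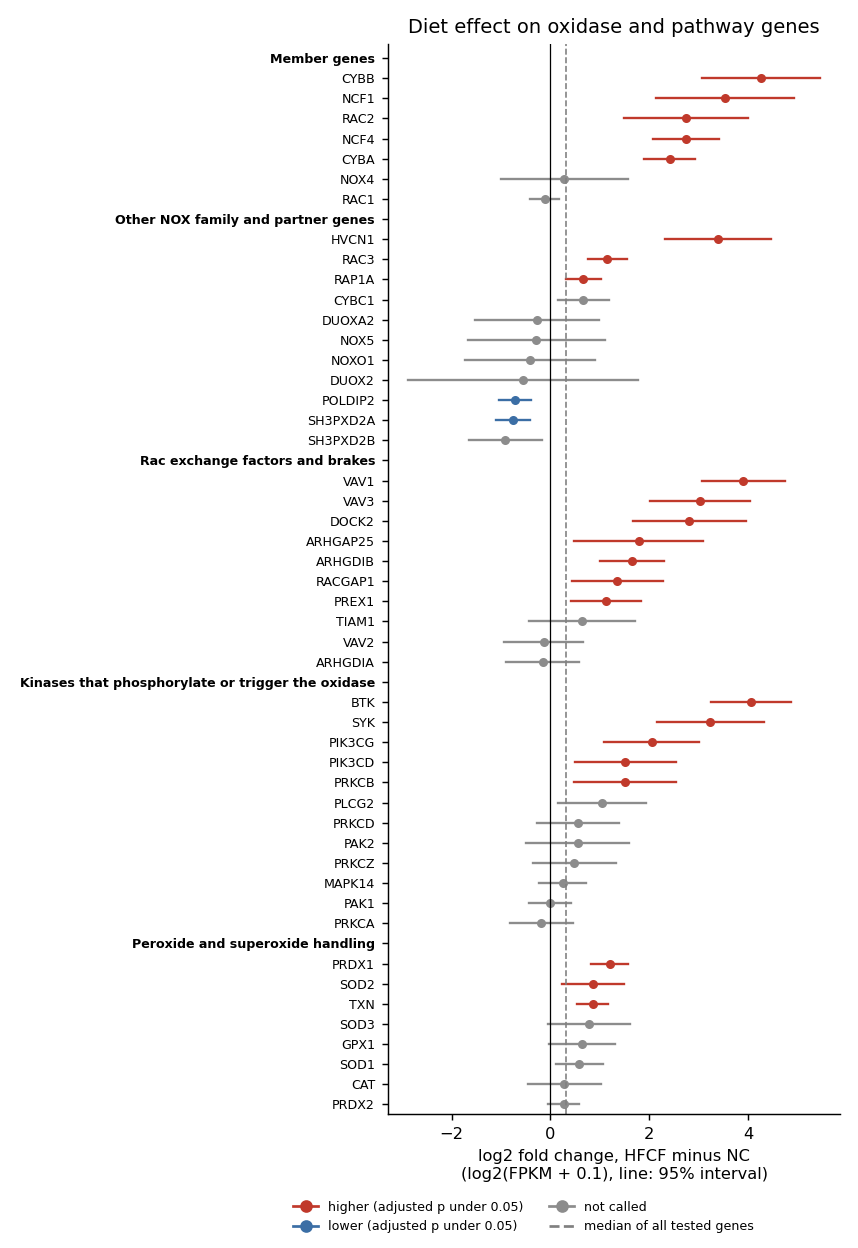
Log2 fold changes (HFCF minus NC, log2(FPKM + 0.1)) with 95% intervals from limma for the 7 tested members and 41 tested pathway genes, in their lists. The dashed line is the median of all tested genes at 0.32; CYBB, BTK and VAV1 lie farthest to the right, and RAC1 and NOX4 have intervals that include 0.

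The pattern over the 6 libraries was compared with that of 9581 genes that have a symbol and a mean of at least 1 FPKM, by Pearson's r of the log2 values, as a description. The 5 genes most like CYBB were TNFAIP8 (r = 0.9996), LCP1 (0.9994), CD84 (0.998), LYPLA2 (0.998) and CTSS (0.998). Of these, CD84 reached the mean of 1 FPKM only through the HFCF group, with means of 0.064 FPKM in NC and 2.68 FPKM in HFCF. LCP1 is the leukocyte actin-bundling protein L-plastin, CD84 a leukocyte surface receptor and CTSS the lysosomal protease cathepsin S. Pearson's r does not reflect the size of a change. LYPLA2 had 11.4 to 12.6 FPKM in the NC pigs and a log2 fold change of 0.54, against 4.27 for CYBB, and kept its call in 6 of 15 alternatives. Because all 6 points share the diet difference, 1002 genes exceeded r = 0.95. The 5 most like NOX4 were DSC2 (r = 0.978), BCL9L (0.968), INPP5B (0.962), TMEM17 (0.956) and SULF2 (0.951), and these were the only genes above 0.95. Like NOX4 itself, each of these 5 was highest in the third NC pig and lowest in the second NC pig, and none was called by limma.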

How the data were processed

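Abdominal aorta RNA of 3 NC and 3 HFCF pigs was analysed, 1 library per pig. The authors trimmed reads with cutadapt 1.9, checked them with FastQC, aligned them with HISAT2 and quantified 30477 genes with StringTie, and the deposited FPKM values were used. The article names an older pig genome build than the RefSeq table used for names, so no coordinates or sequences are given. Values up to 0.0001 were read as 0. Relative depths were estimated from the commonest ratio of values under 0.3 FPKM in genes with 1 transcript.

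Values were tested as log2(FPKM + 0.1) for genes with a mean of at least 0.1 FPKM, with limma 3.58.1 in R 4.3.3 (a single diet term, moderated with a trended prior variance), and ratios within a library with exact permutation tests in scipy 1.17.1. The fit was tested on simulated data with the same spread for every gene, whereas the spread of the real values differed between genes. The limma p-values weigh a difference against the spread between pigs, moderated over all tested genes. The permutation p-values come from exchanging pigs between the groups. The members and gene lists were chosen with earlier results of these data known. All members were described, and in each pathway list the called genes, up to 4 by size, or all of a count of 5 or fewer. The remaining called Rac regulators and the other uncalled genes named were added after their values were seen. NOXA1, AKT1, ADGRE1, S100A9 and CXCR2 were not matched, and 1 further gene was left out of the pathway lists and their counts and is not reported here. The alternatives were pseudocounts of 1 and 0.01, other filters, 3 scalings, eBayes without a trend, a replicate block and leaving out each library.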

Additional observations from a re-analysis of the deposited data

How the results depend on the processing

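Over 15 alternatives, 101 of 105 recomputed fold changes of the 7 tested members kept their direction and their side of the threshold, and 54 of 60 recomputed counts of called genes stayed within 1.5 times the reported count. Over 9 alternatives, 69 of 72 recomputed relations within a library kept their direction, and none could pass the threshold at this size. The log2 fold change of NOX4 turned to -0.063 with median-ratio scaling, to -0.12 with quantile normalization and to -0.29 without the second NC pig, and it lay between -0.29 and 0.91 with 1 library left out. RAC1 was called lower with median-ratio scaling (-0.47), which made the number of members called lower 1 in place of 0 by limma (also 0 at an unadjusted p under 0.05). The number of pathway genes called higher was 11 with each of the 3 scalings in place of 18, and between 10 and 14 with 1 library left out. NCF1 relative to the macrophage markers was -0.66 with a pseudocount of 1 and between -0.22 and 0.31 with 1 library left out. The cause of these changes was not tested, and each left-out fit rests on 1 pig fewer. Deviations of pigs with the same replicate number correlated at 0.02, -0.08 and -0.07, so the numbers were not read as pairs. With a replicate block the 5 phagocyte genes kept their calls (log2 fold change of CYBB 4.27, adjusted p = 0.0147, limma), and the calls over all genes fell from 3505 higher and 948 lower to 2232 and 540. Scaling lowered the number called higher over all genes and raised the number called lower, to 1748 higher and 1782 lower with quantile normalization, 2035 and 1969 with median-ratio scaling and 2229 and 1527 with TPM. With 3 pigs in a group, precision is set by the spread between pigs, and the absolute depth behind low values such as those of NCF1 and RAC2 in the NC group is unknown.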
